A study of Mus musculus with 8 samples.

Results

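The microRNA precursors mmu-mir-770, mmu-mir-673, mmu-mir-493, mmu-mir-337, mmu-mir-3544, mmu-mir-540, mmu-mir-665, mmu-mir-341, mmu-mir-1188 and mmu-mir-370 (written without the mouse prefix below) lie in the upstream part of the imprinted Dlk1-Dio3 region of mouse chromosome 12, outside the stretch antisense to the gene Rtl1. They were chosen by name, as the precursors from mir-770 to mir-370 without those antisense to Rtl1, and all 10 were found among the 1181 precursors measured. Small RNA was sequenced from myoblasts, the dividing precursors of muscle fibres, of 4 old and 4 young C57BL/6J mice. Each library came from its own mouse by the labels, which number the mice 1 to 4 within a group, and the libraries are called old 1 to old 4 and young 1 to young 4 here. Both groups are the same strain with no treatment or modified allele named. The labels call the mice old or young without an age, and do not say how the myoblasts were isolated or grown. The title of the series is about miR-431, a microRNA of the same region, in old muscle, and the comparison made here is that of old with young myoblasts.

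In imprinted domains a gene is expressed from the copy of a given parent. In the Dlk1-Dio3 region the paternal copy expresses the proteins Dlk1, Rtl1 and Dio3, and the maternal copy expresses the long non-coding RNAs Meg3, Rian and Mirg, the transcript antisense to Rtl1, small nucleolar RNAs and a large set of microRNAs. The microRNAs are thought to be cut from long maternal transcripts that begin at Meg3. A hairpin precursor holds a 5p and a 3p arm, either of which can become the mature microRNA, and the bases from 2 to 8 of that RNA, its seed, largely set which messenger RNAs it pairs with.

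The members follow each other along 54.6 kb of GRCm38 (the assembly also called mm10), counted from the start of mir-770 to that of mir-370. mir-770 (chromosome 12, 109563692 to 109563785) overlaps an annotated exon of Meg3. mir-673 (109571990 to 109572080) begins 0.26 kb after the end of Meg3, in no annotated gene. mir-493 (109580233 to 109580315), mir-337 (109585789 to 109585885), mir-540 (109586080 to 109586146) and mir-665 (109586314 to 109586407) also lie between Meg3 and Rtl1. mir-3544 (109585813 to 109585873) lies inside mir-337 and is annotated on the minus strand, the other 9 members on the plus strand. mir-341 (109611500 to 109611595), mir-1188 (109611822 to 109611941) and mir-370 (109618258 to 109618336) lie in introns of Rian, past Rtl1.

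The mature arms of these neighbours all differ in their seeds. Stretches shared at shifted positions were not searched, and the hairpins were not aligned, so a common origin was not examined. The table of mature sequences, from RefSeq on GRCm38, holds both arms of each of the 10 members, and the 20 arms carry 20 different seeds. They also differ from each other in bases 2 to 7 alone, with 20 different stretches. The arms of mir-673, mir-540, mir-370 and mir-493 are shown from 5′ to 3′ with the seed in capitals. The measurements below do not separate the arms.
miR-673-5p: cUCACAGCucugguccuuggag
miR-673-3p: uCCGGGGCugaguucugugcacc
miR-540-5p: cAAGGGUCacccucugacucugu
miR-540-3p: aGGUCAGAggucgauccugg
miR-370-5p: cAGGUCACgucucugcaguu
miR-370-3p: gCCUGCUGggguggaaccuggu
miR-493-5p: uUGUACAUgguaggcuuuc
miR-493-3p: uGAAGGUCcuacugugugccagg

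Only 3 of the 20 arms share a seed with any other of the 1738 mature arms in that table. miR-370-5p shares its seed with miR-1193-3p, which is cut from a precursor further along the same region (chromosome 12, 109715750 to 109715770, plus strand). miR-673-5p shares its seed with miR-6985-3p of chromosome 19, and miR-540-3p with miR-6915-5p of chromosome 10. The partners are shown for comparison with the arms above, the seed again in capitals.
miR-1193-3p: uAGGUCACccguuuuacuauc
miR-6985-3p: cUCACAGCcaccuccucacag
miR-6915-5p: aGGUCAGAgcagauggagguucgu

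mir-341 stands out by a repeated unit in its hairpin. The unit CGGU, searched on the given strand, occurs 7 times in its 96 bases, with copies side by side. Among the 1005 RefSeq hairpins, 11.9% hold the unit at least 1 time, and no other hairpin holds more than 3. Among the other members it occurs 1 time, in mir-493. The hairpin is shown with each copy in capitals.
mir-341: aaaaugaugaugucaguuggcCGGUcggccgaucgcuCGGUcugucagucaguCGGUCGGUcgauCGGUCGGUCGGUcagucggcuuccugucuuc

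mir-337 and mir-3544 are opposite strands of the same DNA. The 61 bases of the mir-3544 hairpin are the reverse complement of 61 bases of the mir-337 hairpin, with 0 mismatches. miR-337-3p overlaps miR-3544-5p by 21 bases and miR-337-5p overlaps miR-3544-3p by 17 bases. The facing 3p and 5p arms are shown, with seeds in capitals, because the measurements below cannot tell these precursors apart.
miR-337-3p: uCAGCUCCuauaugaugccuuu
miR-3544-5p: aGAAAGGCaucauauaggagcug

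The members spanned very different levels, from mir-673, which ranked 84 of the 359 tested precursors by its mean, to mir-770 and mir-1188 near the listing floor. Summed without mir-3544, they made up 0.0055% (old 4) to 0.165% (young 3) of all linear values. The deposited values are log2 abundances floored at 0. Their low values step as reads divided by precursor length and library depth would, so levels are compared between precursors on that per-length scale. On this reading old libraries held 25.1 to 28.0 M reads (M for the SI prefix mega) and young libraries 29.96 to 39.4 M, the deepest being young 4. Correlations of the log2 values between pairs of libraries ran from 0.892 to 0.985 over the 359 precursors kept for testing (10 or more on the linear scale in 4 or more libraries). The muscle label was checked against markers: of 11 listed markers 7 were above 0 in all 8 libraries, with summed levels of 21.1 to 21.8 (log2) in old and 20.3 to 22.1 in young libraries. That sum is weighted to mir-486, a listed marker. Its locus, listed under the names mir-486 and mir-3107, held 32.4% to 72.9% of all linear values with both names added. Reads listed under both names would enter once per name, so this is neither mir-486 alone nor a share of reads. The listed markers mir-206 and mir-133a-1 were lower, at 14.78 to 16.52 and 11.91 to 14.92.

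mir-673 was the most abundant member. Its log2 level was 9.64, 10.19, 12.91 and 8.63 across old 1 to old 4, then 12.67, 12.11, 13.85 and 9.64 across young 1 to young 4. Old 3 lay above 3 of the 4 young libraries and young 4 lay among the old ones, so the groups overlapped. In the sum of linear values over the members, counting mir-337 and mir-3544 once, mir-673 alone held 59.1% to 74.4%, and mir-540 came next with 10.9% to 21.8%. The lowest library, old 4, still held about 905 reads of mir-673.

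mir-540, which lies between mir-337 and mir-665, had log2 levels of 6.93, 7.46, 11.08 and 7.19 among the old and 10.48, 9.58, 11.32 and 7.48 among the young libraries. Old 3 exceeded the average of its 3 group mates by 3.89. The remaining old libraries and young 4 lay between 6.93 and 7.48, and the other 4 libraries at 9.58 or above.

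mir-341 and mir-370, both from introns of Rian, came next in level. mir-341 measured 6.30, 6.99, 10.29 and 5.94 among the old and 8.52, 8.40, 10.79 and 6.63 among the young libraries (log2 level). mir-370 measured 6.13, 6.64, 9.64 and 5.18 among the old and 9.18, 7.81, 10.20 and 6.57 among the young libraries. For both, old 3 was the second highest of all 8 libraries and young 4 the lowest of the young ones.

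mir-337 and mir-3544 gave a single measurement under 2 names. mir-337 measured 4.17, 4.33, 7.87 and 4.41 among the old and 6.92, 6.19, 8.50 and 4.6 among the young libraries (log2 level). mir-3544 stood 0.68 above it in every library, and their lengths of 97 and 61 bases differ by 0.67 on that scale. The same reads were therefore in effect listed under both names, from 49 reads in old 1 to about 1150 in young 3, and the file does not show from which strand they came.

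mir-493 had the widest range of the members. It measured 3.74, 4.21, 7.23 and 0 among the old and 6.70, 6.70, 8.15 and 3.96 among the young libraries (log2 level). The 0 in old 4 stands for under 2.08 reads, since a linear value under 1 is listed as 0. Old 1, old 2 and young 4 held 31, 40 and 51 reads, and young 3 held 771.

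mir-665 and the remaining members were low. mir-665 measured 0.92, 2.79, 5.99 and 2.66 among the old and 5.05, 3.79, 6.77 and 3.06 among the young libraries (log2 level), or 5 reads in old 1 and 157 in old 3. It passed the minimum for testing in exactly 4 libraries, old 3 and young 1, 2 and 3.

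mir-770 and mir-1188 passed that minimum in 3 libraries each and were left out of the limma fit of old against young. They are therefore not among the members called tested here, though exact permutation p-values are given for them below. mir-770, the member within Meg3, was listed at 0 in old 1, old 2 and young 4, and measured 4.09 and 1.76 in old 3 and old 4 and 3.79, 1.72 and 5.10 in young 1 to young 3. mir-1188 was above 0 only in old 3 (3.43), young 1 (3.35) and young 3 (3.54), with 34, 37 and 46 reads. In the other 5 libraries it was below a floor of 3.01 to 4.73 reads. Young 2 was at that floor for mir-1188 although its mir-341, which lies 0.32 kb away, was within 0.12 of that in young 1.

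**Figure D1:**
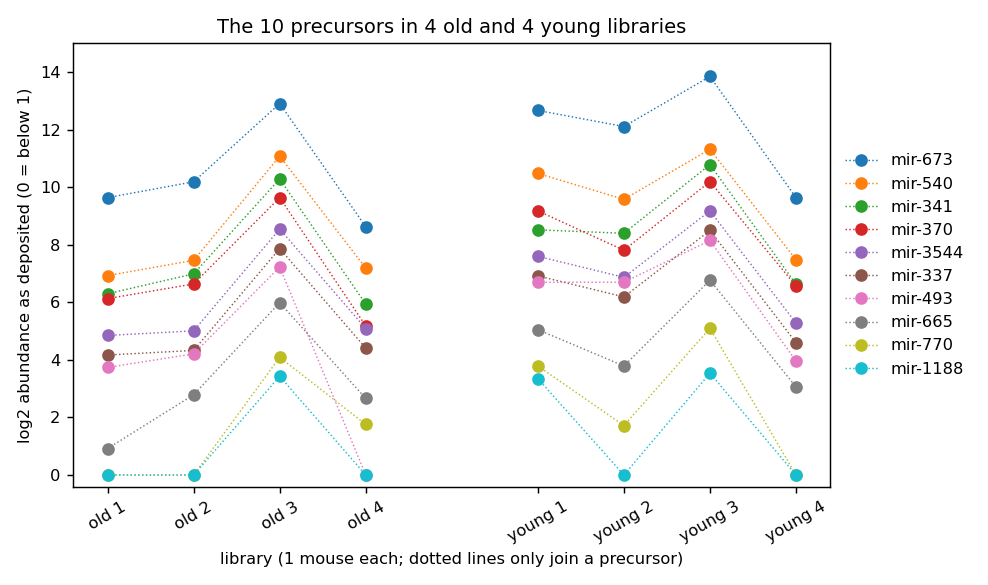
Log2 abundance as deposited (vertical axis) of the 10 precursors in each of the 8 libraries (horizontal axis), with a point for each library and dotted lines that only join the points of a precursor. Young 3, old 3, young 1 and young 2 hold the 4 highest values of each tested precursor, from 13.85 for mir-673 in young 3 down to 3.79 for mir-665 in young 2.

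The order of the levels was nearly the same in every library, but not all neighbours in it differed beyond their spread. Over the 8 libraries mir-673 exceeded mir-540 by 2.27 ± 0.45 (mean log2 difference ± SD), mir-540 exceeded mir-341 by 0.96 ± 0.49, and mir-370 exceeded mir-3544 by 1.12 ± 0.48, each in 8 of 8 libraries. mir-341 and mir-370 differed by 0.31 ± 0.46 and changed places in young 1. mir-493 did not differ from its neighbours beyond the spread, at 0.79 ± 1.51 below mir-337 and 1.21 ± 1.73 above mir-665, each in 7 of 8 libraries. mir-665 exceeded mir-770 by 1.82 ± 0.81 in 8 of 8 libraries, and mir-770 exceeded mir-1188 by 0.77 ± 0.79, in 5 of 8. In old 1, old 2 and young 4 both mir-770 and mir-1188 were listed at 0, so they tied there.

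The 8 tested members ranked the upper libraries identically. Young 3 was highest and old 3 second in 8 of 8, and young 1 and young 2 took the next places in 8 of 8 (mir-493 at 6.70 in both). Old 1, old 2, old 4 and young 4 always took the last 4 places, below the others by 0.73 to 2.49. Young 3 highest with old 3 next was found in 10% of all 359 tested precursors, in 100% of the members, in 100% of those antisense to Rtl1 and in 75% of those downstream. The division into these upper and lower 4 libraries held in 40 of the 359 tested precursors (11.1%), and outside the region in 4 of 321 (1.25%), namely mir-133a-1, mir-133a-2, mir-501 and mir-5620, with smaller gaps of 0.42, 0.40, 0.12 and 0.17. It held in 100% of the tested members, 100% of the 6 precursors antisense to Rtl1 and 91.7% of the 24 downstream. For mir-665 the filter itself fixed this division, since mir-665 reached the minimum for testing in exactly the upper 4 libraries. Of 39 precursors downstream 24 reached that minimum, and of 7 antisense to Rtl1 6 did. How many of these did so through the upper 4 libraries alone was not counted, so their shares may partly come from the filter. The division was noticed in the values and is not that of old and young.

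Their spread was correspondingly wide. The SD over the 8 libraries was 1.74 to 2.64 for the tested members, with a median of 1.85, against a median of 0.64 over all 359 precursors. Old 3 exceeded the average of its group mates by 3.42 to 4.58 (log2), or 10.7 to 23.9 times, the largest value being that of mir-493 with its 0 in old 4. Young 4 differed from the mean of the other young libraries by -3.24 to -2.14.

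Depth, the mir-486 share and marker levels were compared with this order. Young 4 was the deepest library and old 3, with 26.2 M reads, was among the shallower ones. The rows of mir-486 and mir-3107, names of the same locus, were added. Together they held 32.4% of the summed linear values in young 4 and 48.4% to 72.9% in the other libraries, with 62.2% in old 3. Reads listed under both names would enter these shares once per name. Markers of fibroblasts and smooth muscle, 6 of 7 above 0 in all libraries with mir-145b at 0, summed to 15.4 to 15.9 (log2) in old and 14.6 to 15.7 in young libraries. Blood markers were near the floor, with summed levels of 2.53 to 4.47, and mir-142, mir-142b, mir-144 and mir-223 at 0 throughout. Endothelial markers summed to 4.13 to 6.28 and epithelial ones to 5.30 to 8.12, with mir-200a and mir-429 at 0 in all 8, and both were highest in old 4 and young 4, as were the blood markers. Markers of neural cells, 3 of 10 above 0 in all libraries, divided the libraries as the members did, though narrowly: they summed to 11.25, 11.64, 11.60 and 11.11 in young 1, 2, 3 and old 3, and to 10.72, 10.84, 11.09 and 10.82 in old 1, 2, 4 and young 4. The liver marker mir-122 reached at most 2.53. The part of these differences in the members' values was not tested, and in bulk RNA fewer cells of a type and less RNA per cell cannot be told apart.

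Against each other the members changed less than all of them did together. Relative to the mean of the other tested members, taken without its read-sharing partner, mir-673 stayed between 4.25 and 5.06 (log2 difference), mir-540 between 1.69 and 2.63, mir-341 between 0.15 and 1.25 and mir-370 between 0.15 and 0.91. The SD of this relative level over the 8 libraries was 0.29 to 0.36 for these 4 members. In old 4 the listed 0 of mir-493 enters the mean of the others and raises their relative levels there. The ranges given therefore hold for old 4 only with that 0 counted. Without old 4 the SD was 0.27 to 0.38 for these 4 members. The low members varied more, with an SD of 0.75 for mir-665 and 1.35 for mir-493. The value of mir-493 rests on old 4, where it was at -5.59, and was 0.38 without that library. mir-337 and mir-3544 had an SD of 0.47 with old 4 and 0.20 without it, then the smallest of the members. The listed 0 of mir-493 lowers their reference mean in old 4, so this change is partly that of the reference.

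**Figure D2:**
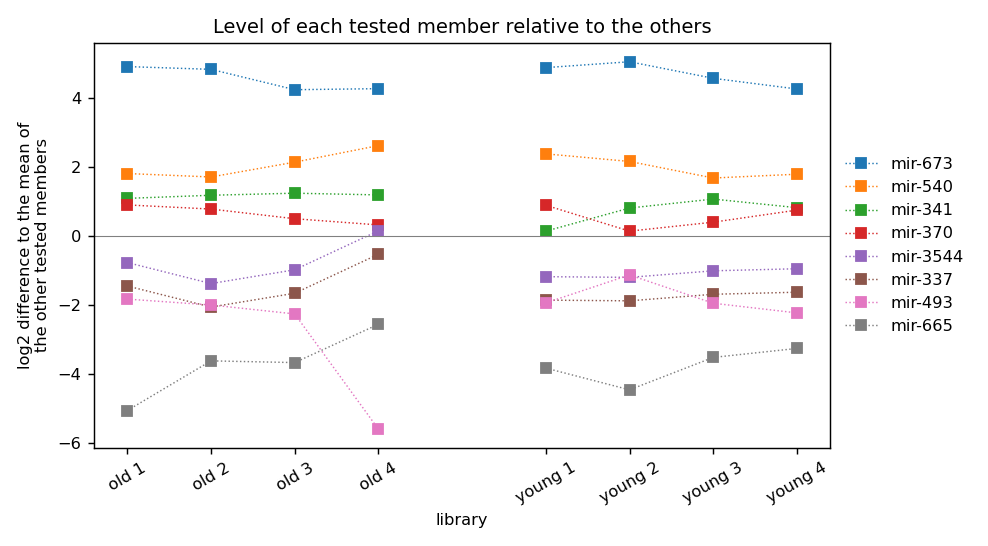
Log2 difference of each tested member to the mean of the other tested members (vertical axis) in each library (horizontal axis); mir-337 and mir-3544 are not counted in each other's mean. The lines of mir-673, mir-540, mir-341 and mir-370 have an SD of 0.29 to 0.36, and the lowest point is mir-493 in old 4 at -5.59. Its listed 0 there also raises the points of the other members in old 4.

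For all 8 tested members the mean was lower in the old myoblasts, and 0 of them passed the test. The log2 differences, old minus young, ran from -2.58 to -1.20 with a median of -1.55. Of all 359 precursors 54% had a lower mean in old libraries, the median difference was -0.05, 12.8% had a difference of -1 or below (8 of the 8 members), and 0% were called at an adjusted p of 0.05 (limma with Benjamini-Hochberg adjustment). At an unadjusted p under 0.05 there were 4 of 359 (1.11%), and 0 of the 8 members. Since the 8 share their libraries and their order, their common sign is not 8 separate observations. For mir-665 the filter also favours a lower old mean, since it was kept only through old 3 and young 1, 2 and 3.

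mir-673 measured 10.34 ± 1.83 in old and 12.07 ± 1.77 in young libraries (log2 level, mean ± SD, n = 4 each). Old minus young came to -1.73 (SE 1.04, 95% interval -4.06 to 0.61), a ratio of young to old of 3.31 (limma adjusted p = 0.995). mir-493 had the lowest difference of all 359 precursors, namely -2.58, with group means of 3.80 ± 2.97 (old) and 6.38 ± 1.75 (young). The SE was 1.41 and the 95% interval -5.76 to 0.59 (limma adjusted p = 0.995). Its SE was also the widest of the members. The value rests on the listed 0 in old 4: without that library mir-493 differed by -1.32 and ranked 17 from the lowest, and with 10 added before the log by -1.63, ranking 9.

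The other members differed by less. mir-540 was at 8.17 ± 1.96 in old and 9.72 ± 1.65 in young libraries, mir-370 at 6.90 ± 1.93 and 8.44 ± 1.59, and mir-341 at 7.38 ± 1.99 and 8.59 ± 1.71 (log2 level, SD, n = 4 each). mir-337 was at 5.20 ± 1.79 and 6.55 ± 1.62 and mir-665 at 3.09 ± 2.11 and 4.67 ± 1.63. Their differences were -1.55, -1.54, -1.20, -1.36 and -1.58 in that order, each with an SE of 1.02 to 1.13 and a limma adjusted p of 0.995. For the 8 tested members the two-sided exact permutation p ran from 0.257 to 0.371, where 4 against 4 libraries cannot go below 0.0286. Old and young libraries overlapped for every one of the 10 members, as they did for all but 3 of the 359 tested precursors (0.836% did not overlap).

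mir-770 averaged 1.46 ± 1.94 (old) and 2.65 ± 2.25 (young), with n = 4 each and an exact permutation p of 0.571. mir-1188 averaged 0.86 ± 1.72 and 1.72 ± 1.99 (exact permutation p = 0.714). Listed zeros enter these means, so differences below the floor do not show.

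Leaving out single libraries moved the size of the differences. Without old 3 the median of the 8 members was -2.49 and without young 4 it was -2.14, while without young 3 it was -0.92; 0 of the 8 members passed in each of these 3 fits, and at an unadjusted p under 0.05 there were 8 members without old 3 (36 of all 359). Without both old 3 and young 4 the median was -3.08 and 7 of the 8 passed an adjusted p of 0.05 in limma, where 9.19% of all 359 precursors did. The exception was mir-665, at -3.08 with an adjusted p of 0.0644. Since these 2 libraries were picked by their levels of the very same microRNAs, that count is no test of age.

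**Figure D3:**
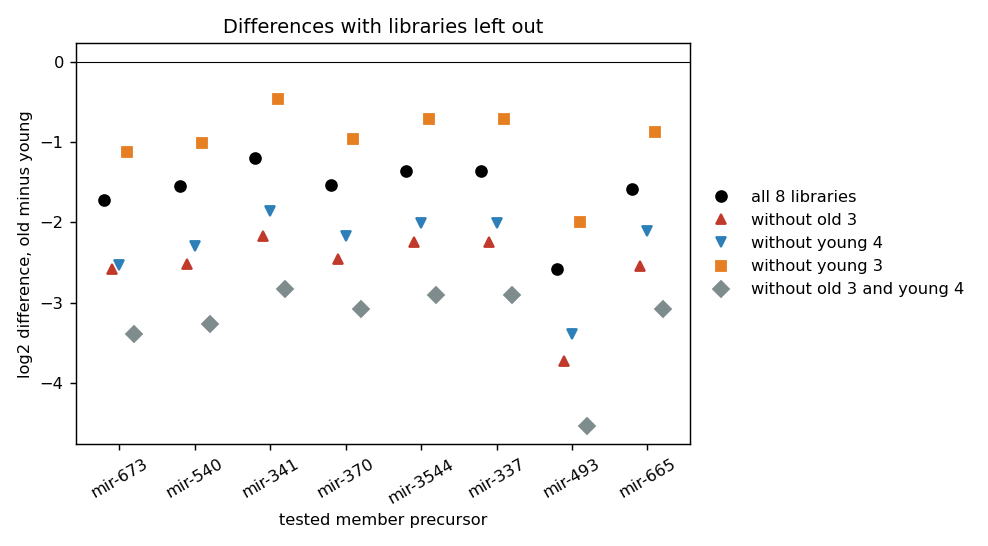
Log2 difference, old minus young (vertical axis), of the 8 tested members (horizontal axis) with all 8 libraries and with the named libraries left out. Every point lies below 0, from -0.47 for mir-341 without young 3 to -4.53 for mir-493 without old 3 and young 4.

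Along the rest of the region the differences were of the same size. Among 7 precursors antisense to Rtl1, 6 were tested, all with lower means in old libraries and a median difference of -1.67. Their most abundant members, mir-127 and mir-434, differed by -1.61 and -1.71. Of 39 precursors downstream of mir-370, 24 were tested, all 24 with lower means in old libraries and a median of -1.66, among them mir-541 (-1.89) and mir-411 (-1.48). None of these 30 passed the test (limma adjusted p = 0.995 for each of the 4 named). The filter can favour low precursors that are high in young 1, 2, 3 and old 3. Its part in the common sign was not examined. The range over these neighbours, -2.56 to -1.10, included the members' median of -1.55.

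**Figure D4:**
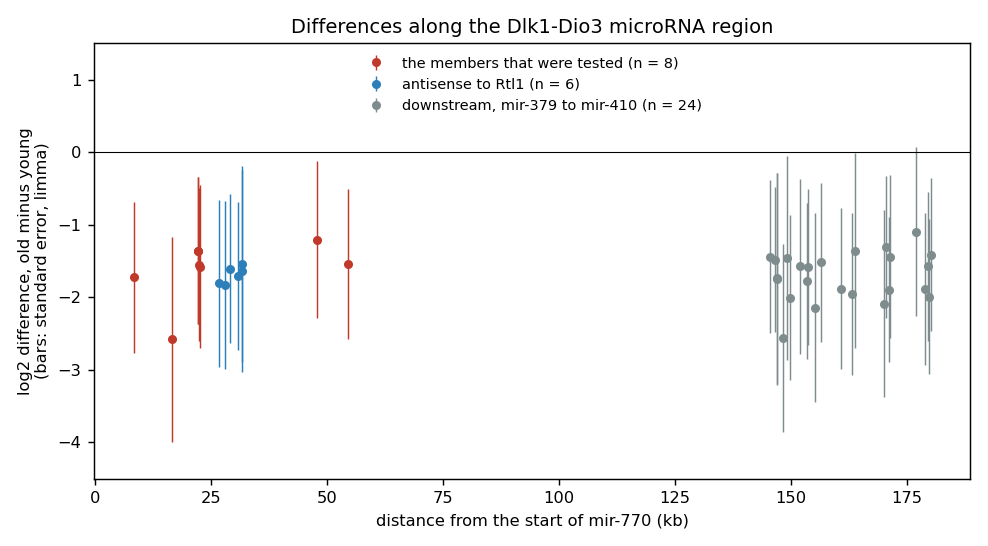
Log2 difference, old minus young, with its standard error (vertical axis), for the tested precursors of the region by distance from the start of mir-770 in kb (horizontal axis). All 38 points lie under the zero line, and the members, in red, take values from -2.58 to -1.20.

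The mean level of the members followed that of both neighbouring groups in every library. The mean over the 8 tested members was 5.34, 5.95, 9.20 and 4.89 across old 1 to old 4, then 8.39, 7.68, 9.84 and 5.90 across young 1 to young 4 (log2). It stayed 0.25 to 1.25 above the mean of the 24 downstream precursors and 0.36 to 1.69 below that of the 6 antisense to Rtl1. These offsets averaged 0.77 ± 0.37 in old and 0.67 ± 0.31 in young libraries for the first, and -0.94 ± 0.43 and -1.01 ± 0.51 for the second (SD, n = 4 each).

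Likeness to the members was measured as the SD over the 8 libraries of a precursor's log2 difference to their mean, small values meaning parallel courses. The 5 most alike in the region were mir-434 (0.18), mir-127 (0.22), mir-666 (0.24), mir-485 (0.24) and mir-410 (0.26). The members themselves had values of 0.25 to 1.18, but each is part of that mean, which lowers its value. The other precursors are not part of it. Outside the region the 321 tested precursors had a median of 2.17 and a lowest value of 1.20, and the 5 most alike were the muscle microRNAs mir-133a-1 (1.20) and mir-133a-2 (1.20), then mir-6997 (1.29), mir-6923 (1.33) and mir-8111 (1.48). mir-133a-1 measured 12.99, 13.11, 14.30 and 12.94 among the old and 13.53, 13.92, 14.92 and 11.91 among the young libraries (log2 level), with a difference of -0.24 between the groups (limma adjusted p = 0.995). The other 4 differed by -0.22 (mir-133a-2), -1.40 (mir-6997), -0.41 (mir-6923) and -1.34 (mir-8111), each with a limma adjusted p of 0.995; at SEs of 0.56 and 0.59, mir-6997 and mir-8111 were among the 4 precursors with an unadjusted p under 0.05. The course of mir-133a-1 had old 3 and young 3 at the top and young 4 at the bottom, over 3.01 in place of the 4.33 to 8.15 of the members.

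Imprinted microRNAs of other regions were compared in the same libraries. The list held mir-675 of H19, mir-483 of Igf2, mir-335 of Mest, and mir-296 and mir-298 of the Gnas region. All 5 had higher means in old libraries, their median difference being 0.29 (0.08 to 1.17), with 0 past the threshold. That direction rests on young 4: without it all 5 had lower means in old libraries, with a median of -0.10 and values from -0.94 (mir-298) to -0.03 (mir-335). Their limma adjusted p ran from 0.715 to 0.989 in that fit. Of all 359 precursors 38.7% had lower means in old libraries there, and the median difference was 0.17. mir-298, the most abundant, measured 14.19, 11.28, 14.20 and 14.69 among the old and 14.85, 13.93, 14.82 and 9.58 among the young libraries (log2 level), so that old 1 and old 4 lay with the high libraries, unlike in the members. mir-483, the next, ranged from 9.42 in young 4 to 13.00 in old 1.

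The seed partners of the members did not share a common level. mir-1193, of the same region, measured 0.23, 0, 4.26 and 1.20 among the old and 3.45, 3.08, 4.05 and 0.06 among the young libraries (log2 level), with the 4 higher values in the same libraries as in the members. mir-6985 measured 3.88 ± 0.64 in old and 3.77 ± 0.96 in young libraries, which differ by 0.12 (limma adjusted p = 0.995). mir-6915 stayed at 2.37 or below and was not tested.

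Meg3 is where the long maternal transcript is thought to begin, and its promoter is shown because the members run together. The window from 250 bases before to 50 after the start of Meg3 (GRCm38, chr12:109540746-109541045, plus strand, from RefSeq) holds the cyclic AMP response element TGACGTCA, 57 bases before the start, and the TATA-type stretch TATATAA, 27 bases before it. Both strands were searched; TGACGTCA occurs in 1.79% and TATATAA in 3.24% of the 32851 promoter windows of that length. The E-box CANNTG, bound by muscle regulatory factors and found in 72.3% of windows, and the MEF2 motif, found in 3.19%, had no match in these letters. The TGACGTCA and TATATAA matches are in capitals, and a match is a description of the sequence only.
Meg3 promoter: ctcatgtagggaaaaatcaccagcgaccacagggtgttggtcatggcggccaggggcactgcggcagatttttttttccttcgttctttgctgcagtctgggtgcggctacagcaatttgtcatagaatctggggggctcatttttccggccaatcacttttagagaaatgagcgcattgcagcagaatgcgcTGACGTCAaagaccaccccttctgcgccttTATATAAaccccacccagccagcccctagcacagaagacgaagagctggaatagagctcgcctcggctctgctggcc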

How the data were processed

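The deposited table gives normalized log2 abundances (2 decimals, floored at 0) of 1181 precursors in 8 libraries; 400 precursors are at 0 in all. The submitters' processing notes name BWA and mm10 only. How reads were trimmed, counted and shared between matching precursors is not given in the sources used here. RNA was isolated with a mirVana kit, per the labels' protocols. Library sizes were taken as those at which value times precursor length is closest to whole reads, for values up to 12 reads. All of the 109 to 207 such values per library then lay within 0.1 of a whole number. Read numbers rest on this reading and are approximate at high values. Read-based figures cover counting error only.

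limma 3.58.1 (R 4.3.3, eBayes with trend) was fitted to the log2 values as deposited for the 359 precursors reaching 10 on the linear scale in 4 or more libraries. No pseudocount was added. P-values were adjusted by Benjamini-Hochberg over all 359, with a threshold of 0.05, and exact permutation tests used the 70 arrangements of 4 against 4. The fit was checked on simulated data with independent noise. The SD of that noise was capped below the members' SDs within groups, 1.79 to 2.96 in old and 1.58 to 1.77 in young libraries. The check therefore does not cover members of such spread that move together. Other steps used Python 3.11.15, scipy 1.17.1 and, for plots, matplotlib 3.10.9. The members and lists were chosen with earlier results of these data known. Besides the 10 members, the genes named were the 5 most parallel inside and outside the region, seed partners and the 2 most abundant of each list. The library order, mir-501 and mir-5620 were picked with their values in view. Positions come from RefSeq (GRCm38.p6) and overlapping genes from GENCODE M21; all 10 members matched. Replicates are separate mice by the labels, and the comparison used all 8.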

Additional observations from a re-analysis of the deposited data

Results flagged for a closer look

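Of the 20 groups of 4 libraries formed by the 10 members and the 2 ages, 4 held a library that stood apart from the other 3 by a gap, as a share of the group's range, above Dixon's critical value. Chance flags about 1 in 20 groups, and the members share their libraries. All 4 cases were old 3, as the highest old library. For mir-337 it was at 7.87, with the next old library at 4.41, and for mir-3544, which repeats the same reads, at 8.55 with the next at 5.09. For mir-540 it was at 11.08 with the next at 7.46. For mir-1188 it was at 3.43 while the other 3 old libraries were listed at 0; with these tied at the floor, any single value above it would meet the criterion, so this case says nothing beyond that value. No young library met this criterion.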

How the results depend on the processing

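The differences of the 8 tested members stayed below 0 in all 158 combinations of member and alternative setting, from -4.53 to -0.47. In 151 of these the member stayed on the same side of the threshold, and in 7 it passed, all with both old 3 and young 4 left out. In that fit 33 of all precursors and 7 members were called, against 0 and 0 with all libraries. The median over the members ranged from -2.49 (without old 3) to -0.92 (without young 3) when a single library was left out, and 0 members were called in each of those 8 fits. Pseudocounts of 1 and 10, no filter, a mean of at least 100, the rescalings (median-ratio, TMM, quantile, and without mir-486 and mir-3107) and limma without trend gave medians from -1.55 to -1.31, and array weights gave -2.15. The array weights were lowest for young 4 (0.27) and old 4 (0.57), so that fit largely discounts young 4. In it 2 of 8 members and 27 of all 359 precursors had an unadjusted p under 0.05 in limma. Quantile normalization and the rescaling without mir-486 moved the median of all precursors from -0.05 to 0.09 and 0.14, and the members stayed below it. Leaving out mir-3544, chosen after seeing the data, left the median at -1.55.

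With the replicate number as a block the median was -1.55 and 0 of 8 members were called, while all 8 members and 39 of all 359 precursors had an unadjusted p under 0.05. The labels give no pairing by number; the deviations of same-numbered libraries correlated at -0.06, 0.43, 0.66 and 0.58, and 6 of 8 libraries were closest to their own number. All 8 members were lower in the old than in the same-numbered young library for 4 of 4 numbers, as were 42 of all 359 precursors (11.7%). The low members are limited by depth, since a linear value under 1, here under 1.53 to 4.73 reads, is listed as 0.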

Other observations

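The hairpins of the 10 members are rich in G and C, with a median of 57.6% and a range from 50.8% (mir-3544) to 70.2% (mir-770), against a median of 51.7% over the 1005 hairpins of the RefSeq table. The members also do not keep fixed proportions in every mouse. In old 4, mir-673 and mir-370 were lower than in old 1, by 1.01 and 0.95 on the log2 scale, while mir-540 and mir-337 were higher by 0.26 and 0.24 and mir-493 was listed at 0. In young 2 and young 1, mir-493 was equal, while mir-370 was lower in young 2 by 1.37. These pairs of libraries were picked after their values were seen, and no test was made.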
